A study of Mus musculus with 12 samples.

Results

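The distal ends of 17 mouse autosomes were examined for trimethylation of lysine 9 of histone H3 (H3K9me3), the histone mark of constitutive heterochromatin, in embryonic stem cells of 2 genotypes. A region belongs to the set when it lies on chromosomes 1 to 19, chromosomes 11 and 16 excepted, and starts within 2 Mb of the last base listed for its chromosome. This gave 923 regions of the 68291 in the authors' deposited table. The genotypes were Tex19.1+/-, which keeps an intact copy of Tex19.1, and Tex19.1-/-, which has none. Both were 129/Ola cells descended from the E14Tg2a line, grown in serum with leukaemia inhibitory factor and used between passages 12 and 20. Each genotype has 3 libraries of immunoprecipitated DNA and 3 of input, 12 in all, and the labels do not say whether libraries came from separate cultures or how many clones were used, so the deposited p-values may measure technical spread only. Genotypes were read from the titles, which 6 of the 12 genotype fields contradict.

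The deposited table holds 1 comparison of the genotypes and no value of a single library, so the spread between replicates could not be measured here. Each region has the log2 fold change between genotypes, the average signal as log2 CPM (CPM being normalised read counts), the p-value and its FDR, the p-value adjusted over the table. The table does not say which genotype was the reference, and differences are therefore given by sign. The standard error printed with a value (SE, or derived error) was worked back from its p-value and inherits all the assumptions of the authors' test. Regions with a deposited FDR below 0.05 are named as called. No region of the table lies within 20 kb of the targeted gene, on chromosome 11, so the labels could not be checked there, and cell identity could not be checked from this mark.

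Mouse autosomes have their centromere at the low-coordinate end, so the distal end of each is the one that carries the long-arm telomere. Telomeres are arrays of the hexamer TTAGGG covered by the shelterin proteins, and the chromatin beside them is known to carry H3K9me3, laid down by the SUV39H methyltransferases and bound by the HP1 proteins. The reference genome stops at a gap before the telomere arrays themselves. The deposited regions therefore describe the subtelomere, a mosaic of repeats, duplicated gene copies and ordinary genes, and not the telomere. Tex19.1 is expressed in the germ line and in pluripotent cells and is known for its role in the control of retrotransposons.

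Sequence could be shown where a region covers the start of a gene. Of 576 RefSeq promoters (build GRCm38.p6, the assembly that mm10 names) in the last 2 Mb, 9 (1.56%) overlapped a listed region, against 777 of 27453 (2.83%) elsewhere on the same chromosomes. The promoters below are the 250 bases before the start, written 5′ to 3′ on the gene's strand with CG dinucleotides, the sites of DNA methylation, in capitals. Gm52691, a noncoding RNA gene at Noc2l and Samd11, is shown because its region had the most positive of the called values (chr4:156245168-156245417, minus strand). Gm51701, also noncoding, lies in the stretch of strongest signal (chr9:123924898-123925147, plus strand). Gtsf1, a factor of the piRNA pathway of germ cells, is shown for its germline role (chr15:103430428-103430677, minus strand), and the region at its promoter had -0.13 in the authors' deposited table (FDR 1).
Gm52691: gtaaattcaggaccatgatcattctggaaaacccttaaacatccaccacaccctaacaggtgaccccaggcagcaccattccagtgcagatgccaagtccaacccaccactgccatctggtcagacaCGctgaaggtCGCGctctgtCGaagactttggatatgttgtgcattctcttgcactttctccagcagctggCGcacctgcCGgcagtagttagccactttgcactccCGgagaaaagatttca
Gm51701: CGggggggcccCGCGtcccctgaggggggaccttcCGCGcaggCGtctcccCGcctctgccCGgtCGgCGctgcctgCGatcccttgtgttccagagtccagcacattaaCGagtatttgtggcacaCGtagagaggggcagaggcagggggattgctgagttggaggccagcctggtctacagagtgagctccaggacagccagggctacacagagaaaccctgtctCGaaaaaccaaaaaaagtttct
Gtsf1: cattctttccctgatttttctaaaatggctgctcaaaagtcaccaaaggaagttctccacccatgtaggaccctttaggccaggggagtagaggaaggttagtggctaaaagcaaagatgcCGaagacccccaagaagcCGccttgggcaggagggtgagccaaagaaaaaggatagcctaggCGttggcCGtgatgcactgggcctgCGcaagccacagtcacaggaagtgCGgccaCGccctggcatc
The promoter of Gm52691 had 7 CG dinucleotides, that of Gm51701 had 14 and that of Gtsf1 had 7, against a median of 6 over the 32851 promoters of the table. The telomere hexamer, searched as TTAGGG and as its complement CCCTAA, was found once in Gm52691, at base 51 from the 5′ end, and in neither of the others. At least 1 copy was present in 9.32% of all promoters and in 9.72% of those in the last 2 Mb. A tandem pair was found in 3 promoters of the whole table and in 0 of the last 2 Mb. Stretches of 25 bases of the Gm51701 promoter recurred in 23 other promoters, so part of it is repeated sequence, while Gm52691 and Gtsf1 shared no such stretch with another promoter.

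A pair of further promoters, at LOC108167320 and Ppp2r3d near the end of chromosome 9, each hold 100 bases unknown in the reference and are not shown whole. They carry the same 49 bases on opposite strands, at chr9:124443020-124443068 and chr9:124477038-124477086, here as read on the strand of LOC108167320.
Shared run: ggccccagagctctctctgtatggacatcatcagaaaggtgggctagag
The run is shown because the regions over both genes hold it, as inverted copies. Whether reads were shared between the copies was not tested.

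Over the 923 regions the median log2 fold change was -0.07, with 551 negative and 372 positive values. On the rest of the 17 autosomes the median was -0.03 over 58660 regions, of which 53.6% were negative, against 59.7% in the subtelomeres. The quartiles of the subtelomeric values were -0.27 and 0.13, and 780 of the 923 lay within 0.5 of 0. Of the 17 chromosomes, 12 had a lower median in the last 2 Mb than elsewhere on the same chromosome. Medians of the last 2 Mb ran from -0.19 on chromosome 9 to 0.03 on chromosome 4. In the whole table the calls numbered 192, or 0.281%, 0.192% positive and 0.0893% negative. In the subtelomeres 10 were called, or 1.08%, of which 7 were negative and 3 positive, against 98 (0.167%) on the rest of these chromosomes. Of those 98, 53 were positive and 45 negative. Subtelomeric regions had somewhat more signal, with a median of 10.2 CPM against 8.49 elsewhere, and greater width, with a median of 875 bp against 774 bp. Of the 77 subtelomeric regions with a log2 CPM below 2, 0 were called, as were 0 of the 6490 such regions on the rest of these chromosomes. At an unadjusted p below 0.05 the subtelomeres had 63 regions (6.83%), 50 of them negative. The share was 4.74% in the whole table and 3.63% on the rest of these chromosomes. All 10 calls lay in the last 1 Mb. Without chromosome 9 the calls numbered 6, and with p-values adjusted without chromosomes 11 and 16 they numbered 7, the regions at Tmem267, near Ppp2r3d and near Mucl2 being lost.

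The excess of negative values over the rest of the chromosomes lay mainly close to the chromosome end. Within 10 kb of the last listed base, 31 of 33 regions had a negative value and the median was -0.40. From 10 to 25 kb the count was 28 of 30, with a median of -0.23, and from 25 to 50 kb it was 25 of 33, with a median of -0.16. The distance from 50 to 100 kb held 44 negative values of 55, with a median of -0.18. From 100 to 200 kb the median was -0.10, with 60 of 96 negative. Farther in, the medians were -0.01 from 200 to 500 kb, -0.05 from 500 to 1000 kb and -0.02 from 1000 to 2000 kb, close to the -0.03 of the rest of the chromosomes. The distance classes were chosen after the values were seen.

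**Figure D1:**
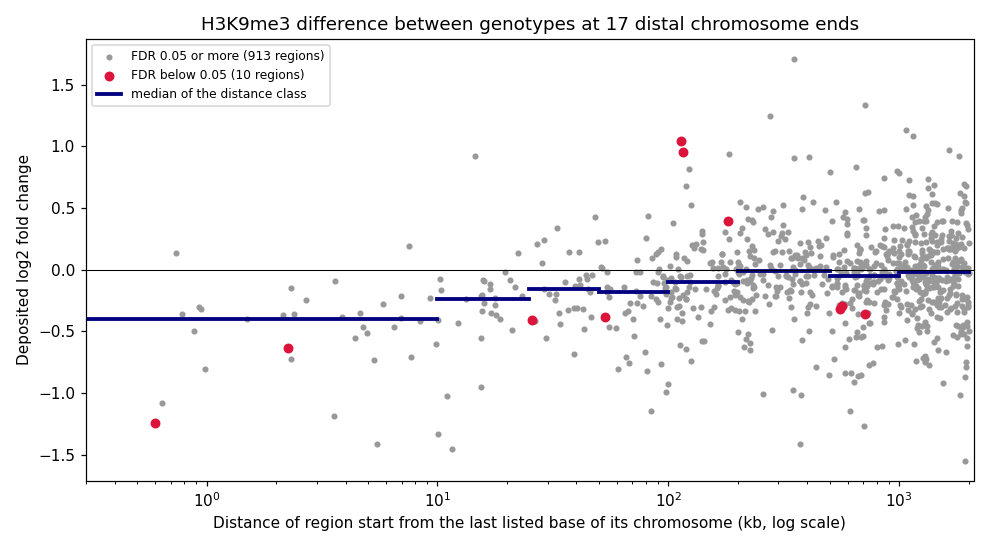
Deposited log2 fold change of the 923 subtelomeric regions against the distance of each region's start from the last listed base of its chromosome, in kb on a log scale. Grey points are uncalled regions, red points the 10 called ones and blue lines the median of each distance class, which goes from -0.40 within 10 kb to near 0 beyond 200 kb.

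The last 100 kb held 151 regions in all. Of these, 128 were negative (84.8%, exact Clopper-Pearson 95% interval 78.0 to 90.1, which treats neighbouring regions as independent although they are not), and the median was -0.25. In the remaining 772 regions, from 100 kb to 2 Mb, 54.8% were negative and the median was -0.04. An unadjusted p below 0.05 in the negative direction was found in 31 of the 151 regions (20.5%), against 2.05% of the whole table, and in the positive direction in 0 of 151, against 2.7% of the table. Called regions numbered 4 (2.65%, against 0.281% of the whole table), all negative. The median of the last 100 kb was below 0 on all 17 chromosomes and, on each, below the median of its own regions from 100 kb to 2 Mb. The weakest was chromosome 18, with -0.04 over 5 regions, and the lowest was chromosome 3, with -1.08 over only 3 regions. On 6 chromosomes every region of the last 100 kb was negative. No test of this difference was made, because the regions of a chromosome are not replicates of a genotype.

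Listed regions were dense at the ends. The last 100 kb had 88.8 listed regions per Mb, against 27.2 on the rest of the chromosomes, although each window by its definition ends at a region. Listed regions covered 15.3% of these bases, against 3.31%. Most of them, 80.1%, lay between genes, compared with 63.5% of regions elsewhere on the same chromosomes. The negative values were found in each context. In the last 100 kb, 17 of the 20 regions in protein-coding genes were negative, as were 9 of the 10 in other genes and 102 of the 121 between genes.

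Stronger regions were more often negative across these chromosomes, so regions were compared within classes of signal. Among regions with a log2 CPM of 2 to 3 the median was -0.35 in the last 100 kb, -0.01 from 100 kb to 2 Mb and 0.02 on the rest of the chromosomes. In the class from 5 to 6 these medians were -0.21, -0.06 and -0.07. At 6 and above all 13 regions of the last 100 kb were negative, with a median of -0.19, against -0.09 over 2005 regions elsewhere. Relative to regions of like signal, 81.5% of the last 100 kb were negative, with a median of -0.20, while the regions from 100 kb to 2 Mb had a median of -0.01. The median of the last 100 kb was the lowest of the 3 in each of the 6 signal classes.

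**Figure D2:**
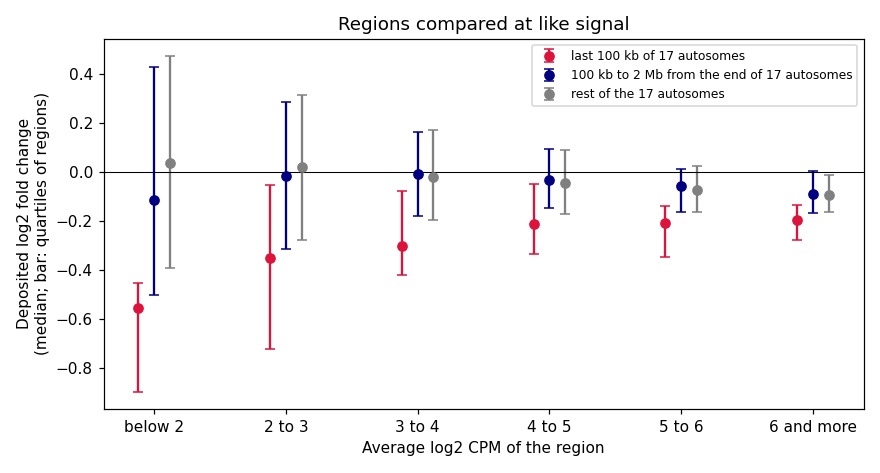
Deposited log2 fold change by class of average log2 CPM, for the last 100 kb (red), 100 kb to 2 Mb (blue) and the rest of the 17 autosomes (grey). Points are medians and bars the range between quartiles; the red medians lie below both others in all 6 classes, by the least where signal is strongest.

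The most distal region of each chromosome gives 1 value per chromosome end. It was negative on 16 of 17 chromosomes, from -1.24 to 0.13 with a median of -0.36. Of the 17, 11 had an unadjusted p below 0.05, against 4.74% of the regions of the whole table. The second most distal region was negative on 16 chromosomes too, and both were negative on 15. On chromosome 12 the most distal region, 7164 bp from the transmembrane protein gene Tmem196 (chr12:120028406-120029007), had -1.24 in the authors' deposited table (SE 0.31, FDR 0.0228) at 11.3 CPM. The chromosome 3 end, 327 bp from Wls, which is needed for Wnt secretion (chr3:159938993-159939632), had -1.08 in the authors' deposited table (SE 0.39, FDR 0.483). At the end of chromosome 4 the region 1421 bp from the pheromone receptor locus Vmn2r125 had -0.80 in the authors' deposited table (SE 0.36, FDR 0.852). These 3 were weak regions of 7.58 to 11.3 CPM, and their size is poorly fixed.

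Stronger terminal regions had smaller and better measured values. On chromosome 1 the last region, 71095 bp from Vmn2r-ps1 (chr1:195362534-195371865), had -0.23 in the authors' deposited table at 178 CPM (SE 0.07, FDR 0.218). On chromosome 10, over the ferritin pseudogene Ftl1-ps2 (chr10:130589157-130594982), the deposited table gave -0.28 at 124 CPM (SE 0.09, FDR 0.225). The chromosome 13 end, at Tcstv3, a gene of the 2-cell stage, had -0.39 in the authors' deposited table (SE 0.11, FDR 0.0819). Chromosome 17, 2619 bp from Gm20939, had -0.35 in the authors' deposited table (SE 0.12, FDR 0.45). On chromosome 2, 11255 bp from Gm14496, the deposited value was -0.50 (SE 0.18, FDR 0.533), and the region before it (chr2:182008291-182011672) had -0.51 (SE 0.14, FDR 0.0722). None of these passed the threshold, although each lay more than 2 derived standard errors below 0.

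The ends of chromosomes 8, 14 and 5 were of like size, at -0.36 near Gm32856, -0.37 at 122023 bp from Fgf14, a regulator of sodium channels, and -0.40 near Gm24242 in the authors' deposited table. Chromosomes 15, 7 and 6 had -0.36, -0.32 near the sensory receptor gene Mrgprd and -0.30 in Gm21814 in the authors' deposited table. These values, and that of chromosome 5 (SE 0.21), each lay within 2 derived standard errors of 0. Chromosome 19 had -0.15 in the authors' deposited table (SE 0.16). The exception was chromosome 18, where the last region, near Gm45871, had 0.13 in the authors' deposited table (SE 0.34, FDR 1). With errors of this size the ends could not be ranked against each other.

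**Figure D3:**
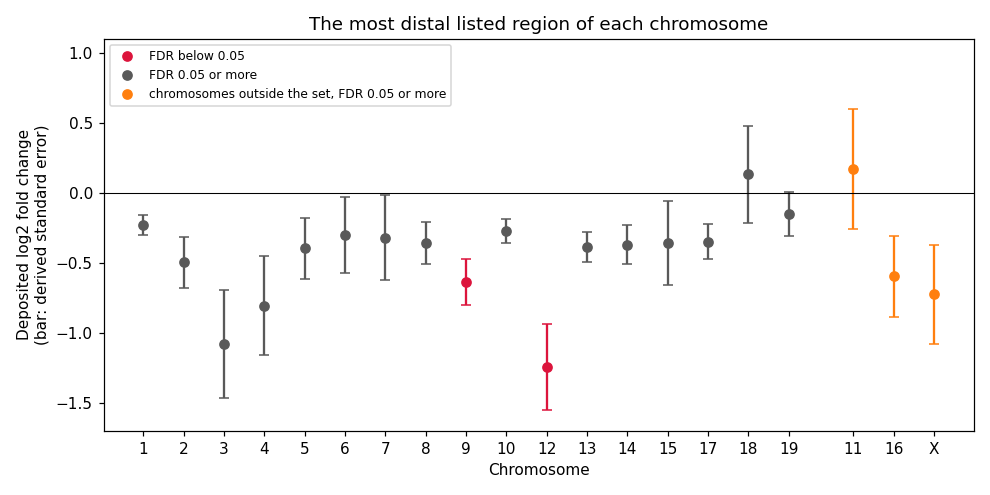
Deposited log2 fold change of the most distal listed region of each chromosome, with the derived standard error as a bar, for the 17 chromosomes of the set and, to the right, chromosomes 11, 16 and X. Red marks the 2 called regions, on chromosomes 9 and 12; all ends but those of chromosomes 18 and 11 lie below 0.

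Chromosome 9 held 4 of the 10 called regions and was the chromosome of lowest median. The strongest region of all the subtelomeres, in Gm51701 (chr9:123927439-123934682), had 1091 CPM and a value of -0.30 in the authors' deposited table (SE 0.03, FDR 2.56e-18). Its neighbour (chr9:123935341-123937497) had -0.32 in the authors' deposited table (SE 0.05, FDR 1.22e-06) at 352 CPM. The region on the other side, which holds the Gm51701 promoter shown above, had -0.18 in the authors' deposited table (FDR 0.595). These 3 adjacent regions lie 555 to 566 kb from the end, outside the last 100 kb. In fold terms the difference at the strongest region was 1.23, and its SE was the smallest of the 10 called regions.

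All 11 regions of the last 60 kb of chromosome 9 were negative, with a median of -0.42. Of these, 2 were called (18.2%, against 0.281% of the whole table), in a stretch chosen after the values were seen. From 100 kb to 2 Mb on this chromosome, which includes the Gm51701 regions, 35 of 55 were negative, with a median of -0.15. The region over LOC108167320 (chr9:124437298-124443181) had -0.38 in the authors' deposited table (SE 0.10, FDR 0.0284). That over Ppp2r3d, which carries the inverted copy of the 49 bases, had -0.20 in the authors' deposited table (SE 0.13, FDR 1). The last region (chr9:124488281-124490528), 11419 bp beyond Ppp2r3d, had -0.64 in the authors' deposited table (SE 0.16, FDR 0.0382), the most negative value among the 300 subtelomeric regions with a log2 CPM of 4 or more.

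Chromosome 4 held all 3 positive calls, the farthest of them 181594 bp from its end. They lay in Agrn, which encodes the neuromuscular proteoglycan agrin, and across Noc2l, an inhibitor of histone acetylation, and Samd11, with 0.40, 0.95 and 1.04 in the authors' deposited table (FDR 0.0123, 0.0214 and 2.3e-08). The region in the body of Agrn with the most signal on this end, 178 CPM, had 0.03 in the authors' deposited table (SE 0.08). Beyond Samd11 the sign turned. The last 4 regions, between 0.98 and 32.8 kb from the end beside the pheromone receptor loci Vmn2r129 and Vmn2r125, were all negative, from -0.80 to -0.16. Of these 0 were called and 2 had an unadjusted p below 0.05.

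**Figure D4:**
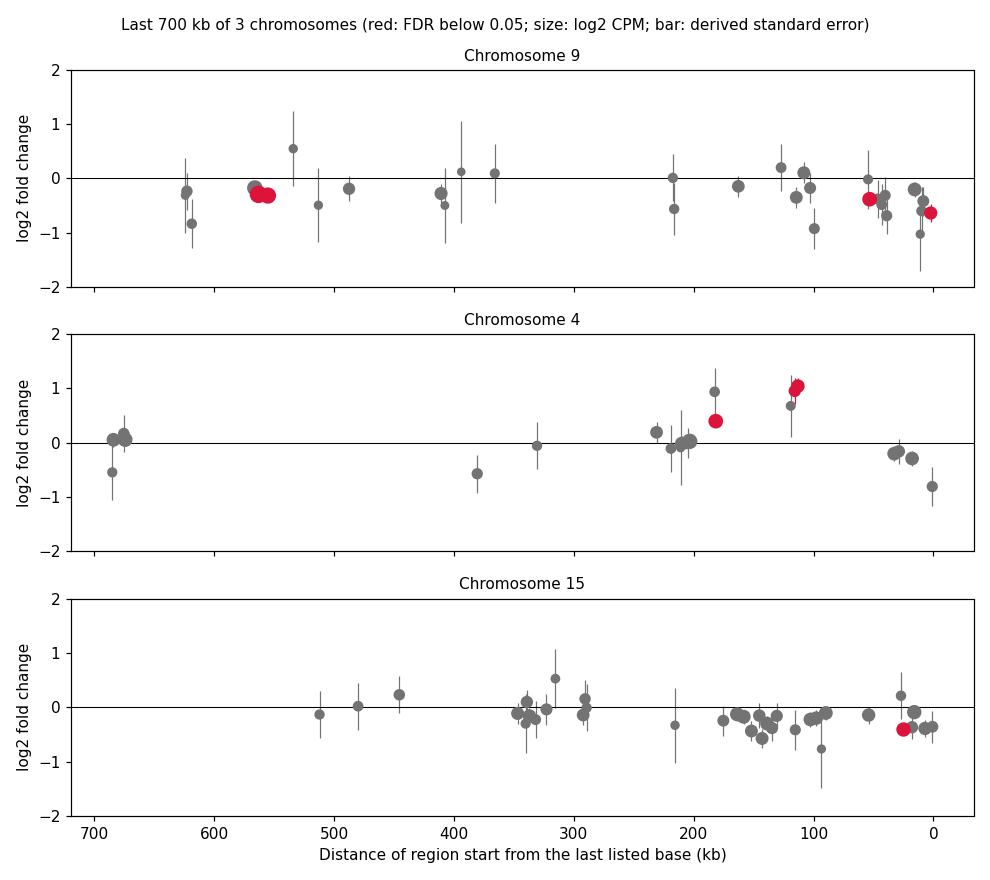
Deposited log2 fold change along the last 700 kb of chromosomes 9, 4 and 15, with the chromosome end at the right, distance in kb, point size rising with log2 CPM and derived standard errors as bars. Red regions are called; on chromosome 4 the positive calls at Agrn, Noc2l and Samd11 are followed by 4 negative regions.

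Runs of negative values also ended chromosomes 15, 1 and 13. In the last 160 kb of chromosome 15, 18 of 19 regions had a negative value and the median was -0.30. The called one, 17429 bp from the mucin-like gene Mucl2 (chr15:103916741-103920107), had -0.41 in the authors' deposited table (SE 0.11, FDR 0.0419). Negative values were frequent farther in on chromosome 15 too. From 100 kb to 2 Mb, which includes part of this stretch, 25 of 32 were negative. Their median of -0.16 was the lowest of the 17 chromosomes at that distance. On chromosome 1 the last 130 kb held 31 regions, 30 of them negative, with a median of -0.25. At an unadjusted p below 0.05 there were 8 (25.8%, against 4.74% of the whole table), and 0 were called, against 0.281%. The values of the 31 regions ran from -1.45 to 0.17, and the range from 100 kb to 2 Mb of the same chromosome had a median of 0.04. On chromosome 13 the 4 regions of the last 100 kb had -0.46 to -0.35, 3 of them at or beside Tcstv3, while from 100 kb to 2 Mb 13 of 34 were negative, with a median of 0.09. A separate stretch of 4 negative regions lay farther in, at Tmem267. One of its regions, 712407 bp from the end (chr13:119608990-119611295), was called at -0.36 in the authors' deposited table (SE 0.09, FDR 0.0339). The strongest region there, at 416 CPM, had -0.13 in the authors' deposited table (SE 0.05, FDR 0.405).

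On chromosomes without a call the region of smallest p lay in the terminal 10 kb on 7 of them, those of chromosomes 1, 2, 3, 8, 10, 14 and 17. Elsewhere it was a weaker or more distant region. Far2, a fatty acyl-CoA reductase gene on chromosome 6 (chr6:148154184-148156016), had 0.54 in the authors' deposited table (SE 0.21, FDR 0.65). Ano1, a chloride channel gene on chromosome 7, had -1.15 at 5.1 CPM in the authors' deposited table (SE 0.51, FDR 0.852). On chromosome 5 a region near Gm8675 had 1.33 at 4.81 CPM in the authors' deposited table (FDR 0.669), on chromosome 19 one near Gm18999 had -0.71 (FDR 0.922), and on chromosome 18 one near Rttn had 0.97 (FDR 1). A further positive value, 0.51 in the pseudogene Gm41655 on chromosome 17, also missed the threshold in the authors' deposited table (FDR 0.597), as did -0.58 near Gm21178 on chromosome 15 (FDR 0.261) and -0.47 in Ano1 (FDR 1).

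On the rest of these chromosomes 78.5% of the 2005 regions at a log2 CPM of 6 or more were negative, so strong regions were mostly negative there too. In the last 2 Mb, the region of highest signal on each chromosome was negative on 15 of 17, most of them by little. It had -0.18 in the lysosomal channel gene Tpcn2 on chromosome 7, -0.15 near Gm40034 on chromosome 2, and -0.18 in Fgf14 on chromosome 14 in the authors' deposited table, with FDR from 0.859 to 1. Near Rfc3 on chromosome 5 it had -0.14, in Gm15784 on chromosome 6 -0.09, in Gm32856 on chromosome 8 -0.10 and near Gm23793 on chromosome 10 -0.19 in the authors' deposited table, again uncalled. Those near Gm9279 on chromosome 12, Gm32512 on chromosome 17, Tmx3 on chromosome 18 and Gm20762 on chromosome 19 ran from -0.14 to -0.04 in the authors' deposited table, and that of chromosome 3, in Gm20752, had 0.01. The regions nearest the 2 Mb limit were taken without a test. Just inside it, a region in Kcnq1 had -0.50, one near Camk1g -0.02 and one near Mrps30 0.21, and just outside, regions in B3glct had -0.16 and 0.47 and one near Gm35454 0.06 in the authors' deposited table.

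Among genes of telomere and heterochromatin function, the window held 1 of 21 telomere protein genes, the helicase gene Rtel1, and 2 of 25 H3K9 methylation factors, Cbx5, which encodes an HP1 protein, and the retroelement silencing factor gene Resf1. None of these had a listed region within 5 kb. Of 16 genes of the 2-cell stage, Tcstv1 and Tcstv3 lay in the window. The 3 regions within 5 kb, all at Tcstv3, had -0.46, -0.41 and -0.39 in the authors' deposited table, with 0 called and 2 at an unadjusted p below 0.05. Regions at genes of this list elsewhere on these chromosomes had a median of -0.05 over 19. The regions at Tcstv3, however, start 3.85 to 10.0 kb from the chromosome end. All 33 regions within 10 kb of the distal ends had a median of -0.40, with 45.5% at an unadjusted p below 0.05, against 4.74% of the whole table. Whether the values at Tcstv3 go with the gene or with its position was not tested. Of the 7 listed imprinted genes in the window, only Kcnq1, a potassium channel gene, had regions, 8 in all, of which 6 were negative, 0 called and 0 at an unadjusted p below 0.05. Each had at most 9.42 CPM, with derived errors of 0.34 or more. The 4 regions at zinc finger genes, 3 in Zfp445, a guardian of imprints, and 1 near Zfp105, had 0.10 to 0.50, with 0 called and 0 at an unadjusted p below 0.05.

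Of the lists used, those of receptor genes had the most regions. For comparison, 4.74% of the whole table had an unadjusted p below 0.05 and 0.281% were called. Olfactory receptor genes had 27 regions within 5 kb, all on chromosome 10, of which 17 were negative, with a median of -0.11, 0 called and 1 at an unadjusted p below 0.05. They began 420 kb from the end. Pheromone (vomeronasal) receptor genes had 21, of which 14 were negative, with a median of -0.20, 0 called and 3 at an unadjusted p below 0.05. At such genes elsewhere the median was -0.04 over 422 regions. The 4 on chromosome 4 and the 2 on chromosome 1, all within 82 kb of the end, were negative. On chromosome 10, from 111 to 198 kb, 2 of 6 were negative, with a median of 0.01. On chromosome 5, which lies farther in at 156 to 294 kb, 6 of 9 were negative, with a median of -0.21, so outside the last 100 kb these values had no order by distance. Both keratin gene regions, in Krt78, lay near the inner limit, with -0.28 and 0.38 in the authors' deposited table. No immunoglobulin heavy chain gene lay in the window.

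Negative values near a chromosome end were not limited to the distal side. At the centromere-proximal end of the same 17 chromosomes, measured from the first listed base, the first 100 kb held 139 negative values of 188 (73.9%). The median was -0.15, and 5 regions were called (2.66%, against 0.281% of the whole table), all negative. Within 10 kb of that end the median was -0.21 over 40 regions, against -0.40 over 33 at the distal end. Unplaced scaffolds, which hold sequence that the assembly could not position, had 111 negative values of 162, with a median of -0.13. The 3 chromosome ends outside the set varied. On chromosome 16 all 21 regions of the last 100 kb had a negative value, the median was -0.51 and 3 were called (14.3%, against 0.281% of the whole table). The negative values there were not limited to the last 100 kb. From 100 kb to 2 Mb, 31 of 42 regions of chromosome 16 were negative, with a median of -0.39, against 0.32 on the rest of that chromosome. On chromosome X all 3 regions of the last 100 kb were negative, at -0.81 to -0.46. Chromosome 11 differed, with 3 of 16 negative and a median of 0.19, below that chromosome's own median of 0.28. These differences between ends were not tested.

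**Figure D5:**
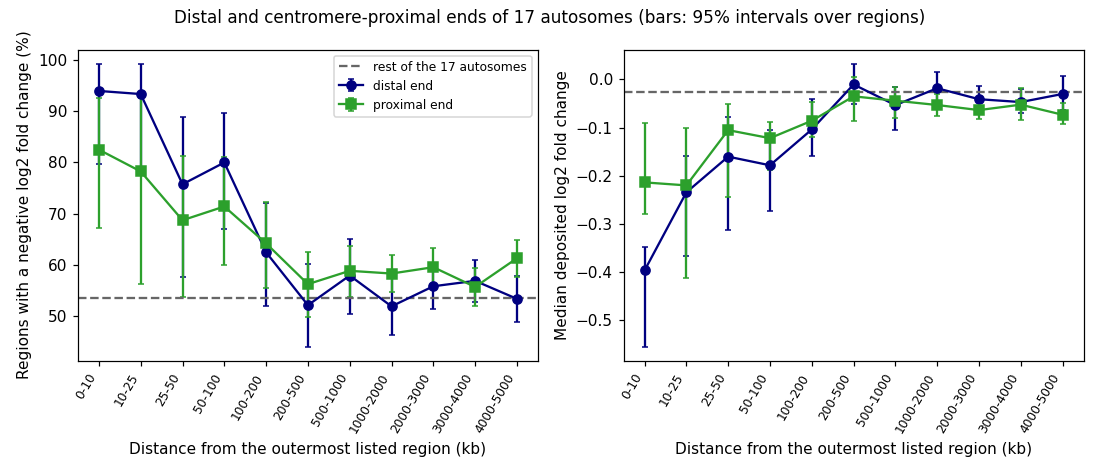
Share of regions with a negative log2 fold change (left, in percent) and median deposited log2 fold change (right) by distance class in kb, for the distal end (blue circles) and the centromere-proximal end (green squares) of the 17 autosomes, with 95% intervals over regions as bars and the rest of these chromosomes as a dashed line. Both ends reach their lowest medians within 25 kb. Beyond 200 kb the distal medians come near the dashed line. The proximal medians stay below it, at -0.04 from 200 to 500 kb and -0.07 from 4000 to 5000 kb, where 61.3% are negative against 53.6% at the line.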

How the data were processed

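H3K9me3 was profiled by chromatin immunoprecipitation and sequencing. Per the submitters' processing notes, Bowtie2 2.2.6, HOMER 4.8, bedtools 2.25.0, edgeR (no version) and build mm10 were used, with no role or order given. The authors' deposited table holds, per the file headers, 4 values a region: the log2 fold change, the log2 CPM, the p-value and the FDR. The reference genotype, the libraries that entered, any use of input and the making of the region list are each not given in the sources used here. With 0 columns of single libraries, depth per library was not analysed here. The planned test was the deposited FDR; adjustment of the deposited p-values by Benjamini-Hochberg also gave 192 calls. The derived standard error is the absolute log2 fold change over the normal deviate of the p-value, if this deviate reached 1 (276 of the 923 regions), and otherwise the median error of regions of like log2 CPM, in bins of 0.5. Its arithmetic was tested on simulated data drawn from a normal model, which does not test how well that model suits the deposited p-values. Like-signal values subtract the median of such a bin outside chromosomes 11 and 16. Genes were assigned from 49997 RefSeq genes by overlap, or by distance to the nearest; lists used an extension of 5 kb. Regions named were the called ones, on each chromosome the one of smallest p, the most distal and the strongest, the 5 largest values per direction at a log2 CPM of 4 or more, and those at listed genes; the stretches of single chromosomes were chosen after their values were seen. Members and lists were chosen with earlier results of these data known. Python 3.11.15, pandas 2.3.3 and SciPy 1.17.1 were used.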

Additional observations from a re-analysis of the deposited data

How the results depend on the processing

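No paired analysis was possible because the deposited table has no values of single libraries, and for the same reason no replicate could be left out. The alternatives for the last 100 kb and the most distal regions were chosen after seeing the data. Of 122 alternatives over 6 results, 0 reversed a direction. Counts of calls and of most distal regions could not be scored as reversed, and most alternatives left out 1 chromosome. The 0 was therefore partly fixed in advance. The 10 calls became 3 at a limit of 0.01 on the FDR and 3 by Holm's method, in both cases the pair at Gm51701 and the region across Noc2l and Samd11. They became 6 without chromosome 9 and 6 without the last 0.1 Mb. With the p-values adjusted by Benjamini-Hochberg without chromosomes 11 and 16, 7 remained, and the regions at Tmem267 (adjusted p = 0.0511), near Ppp2r3d (0.0571) and near Mucl2 (0.0628) were lost. The share of negative values in the last 2 Mb, 59.7%, was 64.0% within 1 Mb, 65.7% for regions of 1000 bp or longer, 65.7% at a log2 CPM of 4 or more, 55.9% relative to like signal, 56.3% relative to the same chromosome and 54.8% without the last 0.1 Mb. The median, -0.07, was -0.10 within 1 Mb, -0.0397 relative to like signal, -0.0399 relative to the same chromosome and -0.0393 without the last 0.1 Mb. The share within 100 kb, 84.8%, was 90.3% at a log2 CPM of 4 or more, and ran from 82.5% to 86.9% with each chromosome left out, the median there from -0.27 to -0.23. In the last 100 kb the median derived error was 0.69 below a log2 CPM of 2 and 0.096 at 6 or more.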
